A study of Homo sapiens with 18 samples.

Results

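The hypoxia and glycolysis genes of human mammary epithelial cells are 40 genes chosen by name, with earlier results of these data known. They are the enzymes of glycolysis with their glucose and lactate carriers and regulatory kinases, the oxygen sensing genes, and established targets of hypoxia-inducible factor (HIF). Of the 40, 38 had a probe set of their own on the Affymetrix HG-U133 Plus 2.0 array, and CA9 and SLC16A3 were not analysed here. The neuronal enolase ENO2 lay under the limit for low values, so that 37 members were tested among 12171 genes. Gene expression was measured on 18 arrays in 9 groups of 2 arrays, from 3 lines that were each profiled as CD10+ cells, as CD10- cells and unsorted.

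All lines came from MCF10A, an immortalised and non-malignant mammary epithelial line with a CDKN2A deletion and a MYC gain, so every group shared that background. M1B26 was made from MCF10A cells sorted for the BMP receptor BMPR1B, and soft agar clones were expanded under BMP2 and IL6, so that its cells descend from a few clones. MC26 was made by long exposure of MCF10A to BMP2 and IL6 without that sort. MCF10A-CT, the control line, was kept in standard medium with neither factor. The dose of IL6 was 10 ng/ml, and for BMP2 the labels give both 5 and 10 ng/ml. CD10 is a cell surface peptidase encoded by MME, found in breast on basal and stromal cells. The sorted cells went through antibody staining and flow cytometry, and the unsorted cells were frozen directly after trypsin, so in each line sorting and handling cannot be told apart.

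HIF is a transcription factor with an oxygen-regulated alpha subunit, HIF1A, and a stable partner, ARNT. When oxygen is present, prolyl hydroxylases such as EGLN1 and EGLN3 mark the alpha subunit for destruction through VHL, so HIF1A is controlled mostly as a protein, which these arrays do not measure. When oxygen is scarce, HIF binds a short DNA core and raises glucose carriers, almost every enzyme of glycolysis, kinases that steer pyruvate away from mitochondria, and genes of mitophagy, collagen hydroxylation and vessel growth. EGLN3, BNIP3, PDK1 and several other members are themselves targets. Many of the same enzymes also follow growth factors, MYC and cell division.

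The HIF core is ACGTG or GCGTG, and it reads CACGT or CACGC where it lies on the opposite strand. In RefSeq promoter windows of GRCh38.p14, which run from 250 bases before to 50 bases after a gene's start, the first listed window of a gene held the core in 25 of the 35 members with a window (71.4%), against 62.8% of 9915 tested genes and 48.4% of 27305 genes with a window. ACGTG, on either strand, was in that window of 15 of the 35 (42.9%), against 26.6% of tested genes. The palindrome CACGTG, the E-box also bound by MYC and related proteins, was in that of 5 (14.3%), against 10.2% of tested genes. Counted over all windows of a gene, 32 of the 35 members (91.4%) held the core in at least 1, against 69.6% of tested genes, ACGTG was in 22 (62.9%, against 32.1%) and the E-box in 8 (22.9%, against 12.6%). Members had more windows than tested genes, 1.89 a gene against 1.46, and single windows held the core in 45 of 66 for members and in 8682 of 14471 for tested genes. A match is a description of the letters, not a bound site.

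Stretches of 60 bases are shown for 6 members that were called in the comparisons described further on, 5′ to 3′ on the strand of the gene, with each core match in capitals. ALDOC and PFKFB4 were called between CD10+ and CD10- M1B26 cells. P4HA1, BNIP3, PGK1 and ENO1 were called between the M1B26 and MCF10A-CT lines. The stretches are ALDOC at chr17:28576896-28576955 (minus strand), PFKFB4 at chr3:48556915-48556974 (minus strand), P4HA1 at chr10:73096898-73096957 (minus strand), BNIP3 at chr10:131982012-131982071 (minus strand), PGK1 at chrX:78104032-78104091 (plus strand) and ENO1 at chr1:8878704-8878763 (minus strand).
ALDOC: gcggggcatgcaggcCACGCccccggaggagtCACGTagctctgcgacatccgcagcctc
PFKFB4: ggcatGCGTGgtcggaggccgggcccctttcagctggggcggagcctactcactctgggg
P4HA1: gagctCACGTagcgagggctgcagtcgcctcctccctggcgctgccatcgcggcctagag
BNIP3: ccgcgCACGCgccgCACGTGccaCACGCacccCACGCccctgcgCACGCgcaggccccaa
PGK1: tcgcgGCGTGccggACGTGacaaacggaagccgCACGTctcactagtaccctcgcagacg
ENO1: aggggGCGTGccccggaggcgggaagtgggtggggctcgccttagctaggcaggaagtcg
BNIP3 held 6 matches in its stretch, of which 2 overlap in the E-box CACGTG. PGK1 held 3 matches, ALDOC 2, and the other 3 stretches 1 each. P4HA2, PGAM1 and EGLN3, all called in some comparison, were the 3 members with no match in any window.

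Values are linear intensities with the same median, 16.65, on every array. Differences are on the log2(intensity + 1) scale with their SE from 1 limma fit over all 18 arrays, and a gene was called where its Benjamini-Hochberg adjusted p within the comparison was under 0.05. Shares of genes called are at this adjusted threshold, so counts of members at an unadjusted p cannot be set against them. The share of all genes at an unadjusted p is not given, so such counts cannot be read as particular to the members. The labels call the 2 arrays of a group biological replicates without saying what was separate, so p-values measure the spread between these arrays, whatever it holds, and the small number of arrays limits the precision. Arrays correlated at 0.901 to 0.957 with each other and at 0.938 to 0.954 within groups. MME checked the sort: CD10+ cells had intensities of 1269 and 1021 in M1B26, 69.8 and 90.7 in MC26 and 48.3 and 65.0 in MCF10A-CT. CD10- cells had 56.4 and 15.9 in M1B26, 27.8 and 6.4 in MC26 and 9.7 and 11.3 in MCF10A-CT. In each line both CD10+ arrays exceeded the CD10- arrays, but MME was called in M1B26 alone. KRT5, a basal keratin, stayed between 3776 and 7924 on all arrays, while the leukocyte antigen PTPRC did not exceed 8.93. A list of epithelial genes did not stay level as KRT5 did. Its mean level, centred per gene, was −1.226 and −1.191 on the M1B26 CD10+ arrays and −0.174 to 0.545 on all others. In bulk RNA, a change in the share of a kind of cell and a change in RNA per cell cannot be told apart.

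**Figure D1:**
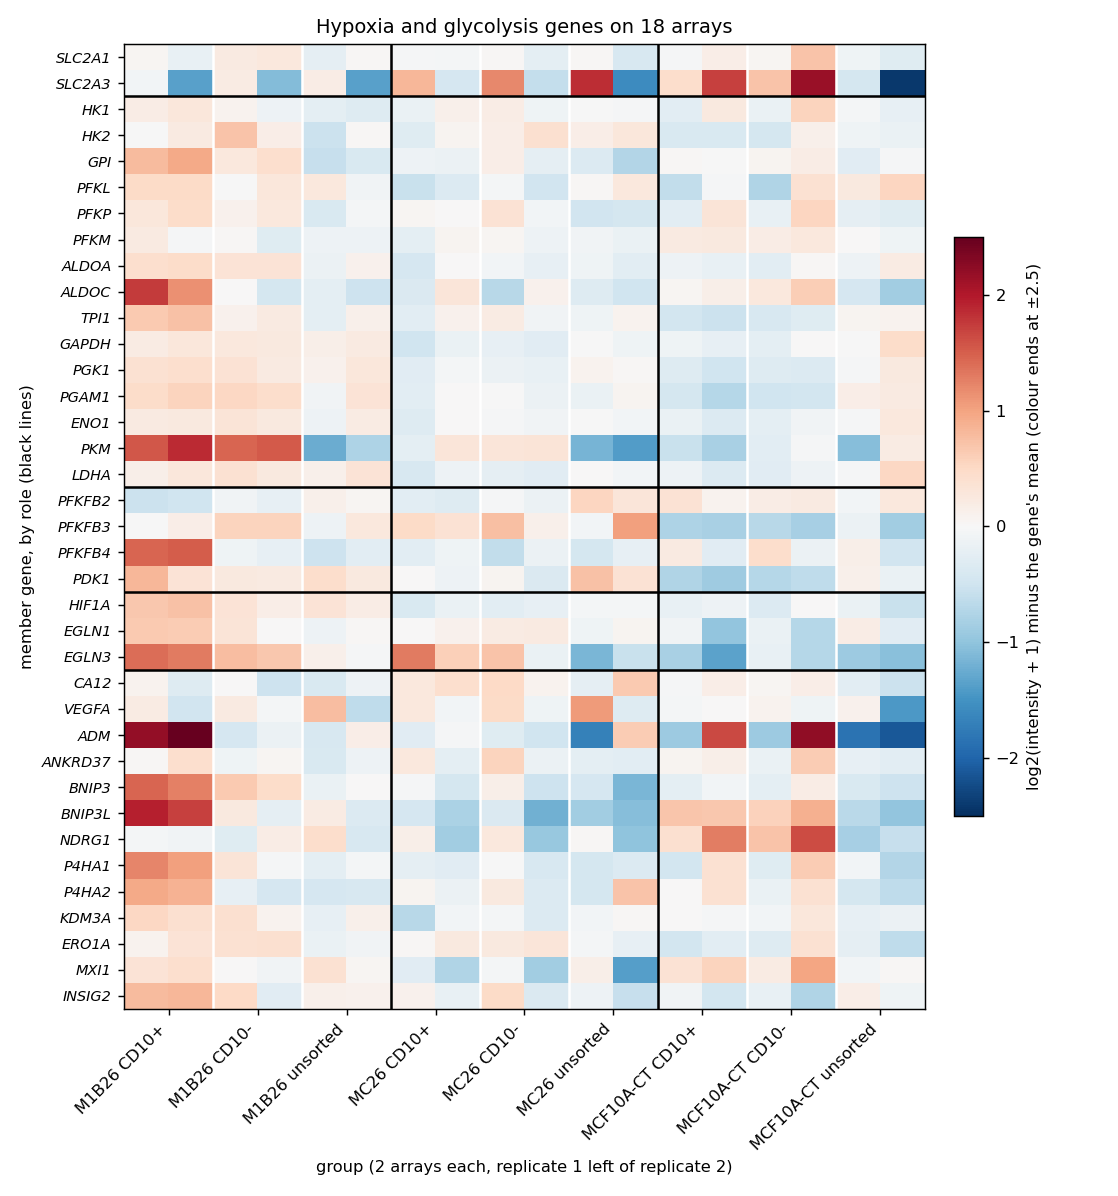
Level of each of the 37 tested members (down the page, grouped by role) on each of the 18 arrays (across), as log2 intensity minus the gene's mean over all arrays. The 2 M1B26 CD10+ arrays carry the highest mean of 22 members.

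The members were highest, as a group, in the CD10+ cells of M1B26. Of the 37, 22 (59.5%) had their highest group mean there, against 26.2% of all tested genes, and 6 (16.2%) had it in M1B26 CD10- cells, against 18.7%. The mean over members of the log2 level, centred per gene, was 0.59 and 0.54 on the 2 M1B26 CD10+ arrays and 0.25 and 0.10 on the CD10- arrays of that line. The highest of the other 14 arrays was 0.24, in MCF10A-CT CD10- cells. The 2 tested glucose carriers did not follow, at −0.004 and −0.775 on the M1B26 CD10+ arrays, against 0.383 and 1.435 in MCF10A-CT CD10- cells. These means are not corrected for the level of the array. The median log2 level of all tested genes was 7.807 and 7.862 on the M1B26 CD10+ arrays and 7.391 to 7.859 on all others. Lowest means were most often in unsorted MCF10A-CT cells, for 11 members (29.7%, against 9.60% of tested genes). The spread of the 9 group means within a gene ran from 0.37 for PFKM, the muscle type phosphofructokinase, to 4.41 for ADM, the gene of the vasodilator peptide adrenomedullin, on the log2 scale.

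CD10+ and CD10- cells of M1B26 differed in 4 members, all higher in CD10+ cells: BNIP3L, PFKFB4, ALDOC and P4HA2. The other 33 members did not pass. Over all tested genes 3.76% were called higher and 2.74% lower, so the members' share was above that of all genes, on 4 genes. Since the members were chosen with earlier results of these data known, that share is a description only. Of the 37 differences 26 lay above 0, with a median of 0.23, against 50.8% above 0 and a median of 0.01 over all tested genes.

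**Figure D2:**
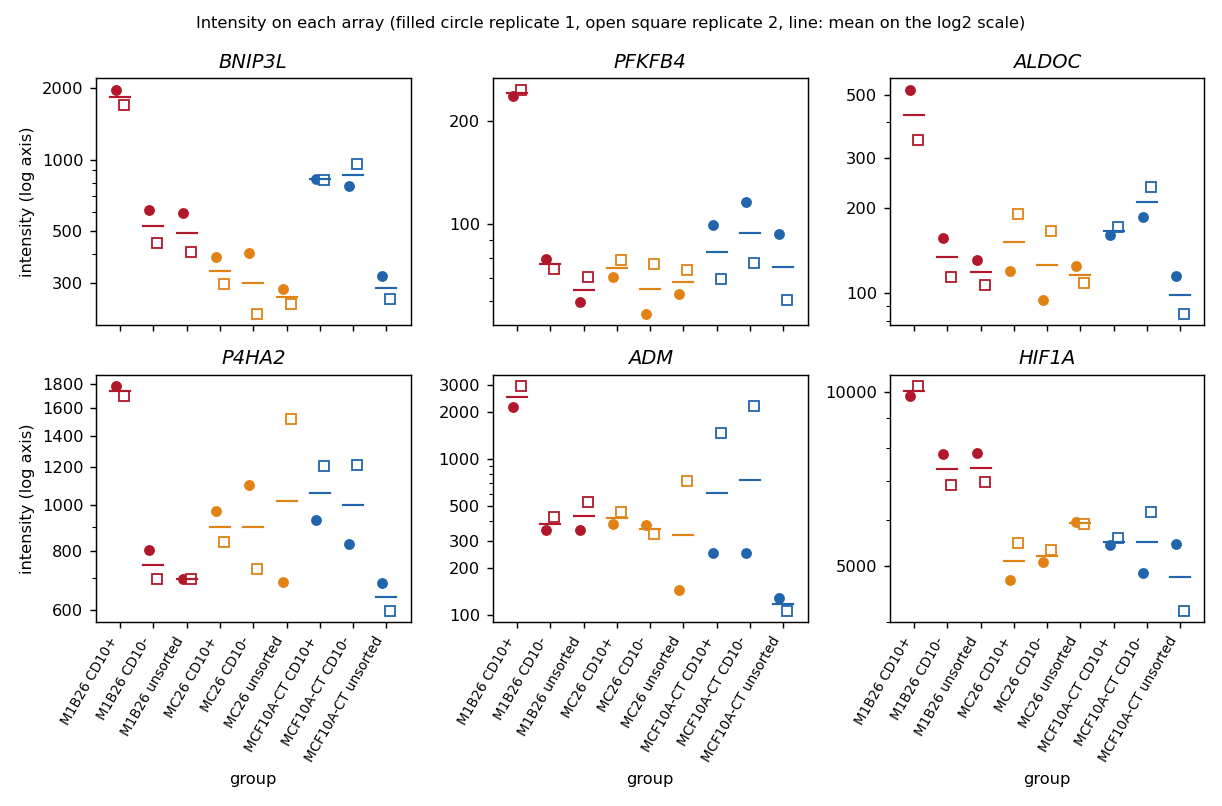
Intensity (log axis) of BNIP3L, PFKFB4, ALDOC, P4HA2, ADM and HIF1A on every array, by group, with replicate 1 as a filled circle, replicate 2 as an open square and the group mean as a line. BNIP3L, PFKFB4 and ALDOC stand apart in M1B26 CD10+ cells, while the MCF10A-CT arrays of ADM lie far from each other.

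BNIP3L encodes NIX, an outer mitochondrial membrane receptor for mitophagy. Its intensity was 1975 and 1694 in CD10+ M1B26 cells, against 614 and 443 in CD10- M1B26 cells, and the groups did not overlap. The difference was 1.81 ± 0.28 (adjusted p = 0.00095, limma). In MC26 it was 387 and 299 in CD10+ cells and 404 and 223 in CD10- cells, and in MCF10A-CT it was 830 and 820 in CD10+ cells, against 771 and 958 in CD10- cells, both overlapping. Unsorted cells had 592 and 408 in M1B26, 283 and 246 in MC26 and 321 and 258 in MCF10A-CT. A second BNIP3L probe set gave 1.88 for the M1B26 difference.

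PFKFB4 makes and breaks down fructose 2,6-bisphosphate, the activator of phosphofructokinase. It measured 236 and 246 in CD10+ M1B26 cells, against 79.1 and 74.1 in CD10- M1B26 cells, a difference of 1.64 ± 0.29 (adjusted p = 0.0026, limma). The other 16 arrays all lay between 55.0 and 116, so the M1B26 CD10+ arrays stood outside them. ALDOC, the brain-type aldolase, measured 521 and 345 in CD10+ M1B26 cells, against 157 and 114 in CD10- M1B26 cells, a difference of 1.66 ± 0.32 (adjusted p = 0.00435). The other lines spanned 94.7 to 190 in MC26 sorted cells and 160 to 236 in MCF10A-CT sorted cells, below both M1B26 CD10+ arrays.

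P4HA2 encodes a catalytic subunit of collagen prolyl 4-hydroxylase. It measured 1780 and 1699 in CD10+ M1B26 cells, against 804 and 696 in CD10- M1B26 cells, a difference of 1.22 ± 0.31 (adjusted p = 0.0266, limma). Its second probe set gave 1.06 (adjusted p = 0.0665). P4HA2 no longer passed without any one of the 4 sorted M1B26 arrays, with adjusted p from 0.0746 to 0.166. ALDOC no longer passed without CD10+ replicate 1 (adjusted p = 0.0818) or CD10- replicate 2 (adjusted p = 0.0668), while BNIP3L and PFKFB4 passed in all 4 cases. With the mean of each gene's probe sets, PFKFB4 (1.17, adjusted p = 0.0514) and P4HA2 (0.88, adjusted p = 0.239) did not pass.

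ADM had the largest M1B26 difference of the tested members, 2.71 ± 0.87, without passing (adjusted p = 0.0784, limma). It measured 2157 and 2925 in CD10+ M1B26 cells, against 348 and 424 in CD10- M1B26 cells, with no overlap. In MCF10A-CT the replicates differed more than the populations, with 250 and 1465 in CD10+ cells and 249 and 2187 in CD10- cells. That spread enters the error of the gene in the fit. P4HA1, the other catalytic collagen hydroxylase subunit, measured 1817 and 1595 in CD10+ M1B26 cells, against 978 and 759 in CD10- M1B26 cells (0.98, adjusted p = 0.0814). BNIP3, the paralog of BNIP3L, measured 3422 and 2994 in CD10+ cells, against 1963 and 1717 in CD10- cells (0.80, adjusted p = 0.0816).

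The other enzymes of glycolysis had smaller differences than ALDOC in M1B26. Of 15 glycolytic enzymes tested, 11 had a difference above 0 between CD10+ and CD10- cells, with a median of 0.18, and ALDOC alone passed. TPI1, triosephosphate isomerase, measured 7386 and 7742 in CD10+ cells, against 5013 and 5486 in CD10- cells (0.53, adjusted p = 0.0667). LDHA, which turns pyruvate into lactate, measured 10654 and 11609 in CD10+ cells, against 12537 and 11425 in CD10- cells, and GAPDH measured 10008 and 10437 in CD10+ cells, against 10300 and 10154 in CD10- cells. Both overlapped. The glucose carrier SLC2A1 (GLUT1) measured 230 and 194 in CD10+ cells, against 257 and 265 in CD10- cells (−0.31, not called).

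Among the oxygen sensing genes, none passed between the M1B26 populations. HIF1A measured 9836 and 10216 in CD10+ cells, against 7804 and 6902 in CD10- cells (0.45 ± 0.16, adjusted p = 0.10, limma), without overlap. EGLN3 measured 103 and 96.1 in CD10+ cells, against 66.2 and 61.7 in CD10- cells (0.63, not called). The vessel growth factor VEGFA measured 1384 and 855 in CD10+ cells, against 1399 and 1157 in CD10- cells (−0.23, not called), and overlapped. The 4 regulatory kinases had a median of −0.01, with PFKFB4 above 0 and called and the other 3 not called, among them PFKFB3 at 422 and 475 in CD10+ cells, against 624 and 624 in CD10- cells.

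ENO2 was left out of the fit because its mean over the arrays was near background. It measured 85.8 and 125 in CD10+ M1B26 cells, against 3.94 and 11.5 in CD10- M1B26 cells. Every array outside M1B26 CD10+ cells lay at or under 17.5. In a fit without the low-value limit (19775 genes) the difference was 3.74 ± 0.76 (adjusted p = 0.00956, limma), a size that rests on values near background in the CD10- cells.

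The M1B26 CD10+ cells also differed from the CD10- cells in markers of cell state, and the part of that in the members' differences was not tested. Of 9 tested mesenchymal markers 6 were higher and none lower, and of 9 epithelial markers 6 were lower and 1 (KRT8) higher. CDH1, the epithelial cadherin, measured 39.6 and 54.2 in M1B26 CD10+ cells, against 481 and 718 in CD10- cells. ZEB1, a repressor of CDH1, measured 603 and 587 in CD10+ cells, against 123 and 51.4 in CD10- cells. The mean centred level of the mesenchymal list was 2.85 and 3.05 on the M1B26 CD10+ arrays and −1.34 to 0.64 on all others, and that of the epithelial list was −1.23 and −1.19, against −0.17 to 0.55 on all others. The 6 higher mesenchymal genes were ZEB1, ZEB2 (5.35), DCN (4.64), COL6A1 (4.24), COL6A3 (3.57) and FN1 (3.40), and of the matrix genes COL1A2, a fibroblast collagen near background, had 17.9 and 23.4 in M1B26 CD10+ cells, against 5.16 and 22.6 in CD10- cells. Cell division genes (0 of 10 called) and immediate early genes (0 of 9 called) were not called by limma between these populations, nor were leukocyte (0 of 3) or endothelial genes (0 of 2).

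In MC26 and in MCF10A-CT no member was called between CD10+ and CD10- cells by limma, and none had an unadjusted p under 0.05 in either line. Over all genes 0% were called in either direction in both lines, and MME itself was not called (2.465 in MC26, 2.315 in MCF10A-CT). These comparisons could therefore miss differences of that size. The smallest p in MC26 belonged to EGLN3 (0.67), the hexokinase HK2 (−0.41) and PFKFB2 (−0.21), and in MCF10A-CT to the oxidoreductase gene ERO1A (−0.39), EGLN3 (−0.63) and PKM (−0.53), all with an adjusted p of 1. Medians over members were −0.06 in MC26 and −0.13 in MCF10A-CT, against −0.10 and −0.04 over all genes in the same lines. With both lines averaged, which was added after seeing the data, again 0 members were called by limma and 0 had an unadjusted p under 0.05, with 0% of genes called either way.

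Averaged over the 3 lines, no member passed by limma, where 0.468% of all genes were called higher and 0.674% lower. At an unadjusted p under 0.05, a looser threshold than that of these shares, there were 5 members, with no share of all genes given for it. BNIP3L came closest (0.64, adjusted p = 0.0801), followed by PFKFB4 (0.55, adjusted p = 0.182) and ALDOC (0.53, adjusted p = 0.282). Without MC26 CD10- replicate 1, BNIP3L was called (0.78, adjusted p = 0.0306).

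**Figure D3:**
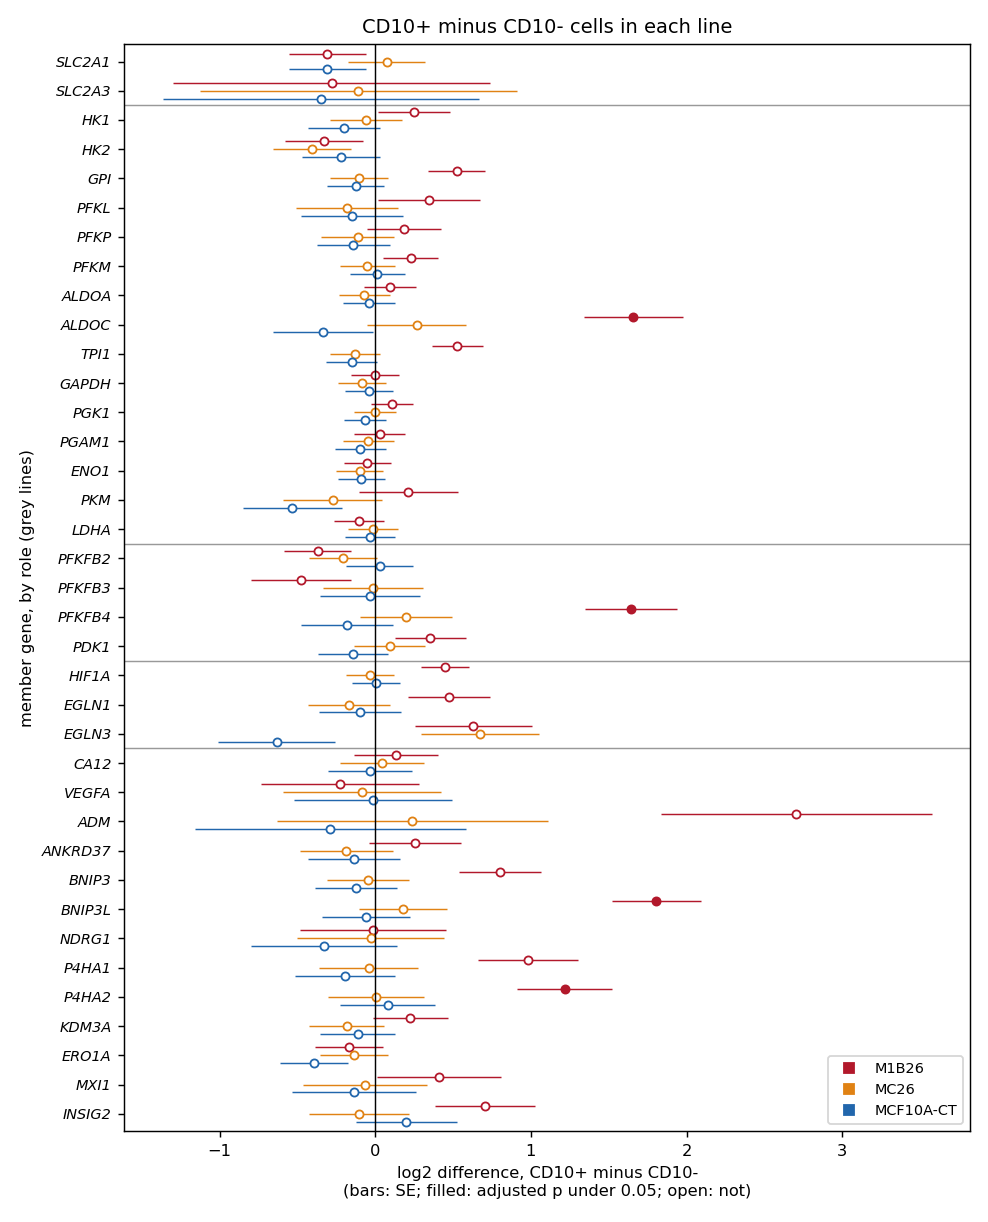
CD10+ minus CD10- difference (log2 scale, horizontal) with its SE for each member (vertical) in M1B26, MC26 and MCF10A-CT, with called differences as filled points. The 4 filled points, BNIP3L, PFKFB4, ALDOC and P4HA2, are all in M1B26.

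Whether the CD10 difference of M1B26 exceeded that of the other lines was tested directly. The M1B26 difference was larger than that of MCF10A-CT in 3 members, BNIP3L (1.87 ± 0.40, adjusted p = 0.0324), ALDOC (1.99 ± 0.45, adjusted p = 0.0406) and PFKFB4 (1.83 ± 0.42, adjusted p = 0.042, limma). It was smaller in none, while 0.666% of all genes were called with a larger and 0.715% with a smaller difference. ALDOC did not pass under quantile normalization (adjusted p = 0.0507), with arrays centred on the tested genes (adjusted p = 0.0542), without the low-value limit (adjusted p = 0.0637) or with the mean of its probe sets (adjusted p = 0.0502). PFKFB4 did not pass without the low-value limit (adjusted p = 0.0838) or with the mean of its probe sets (1.53, adjusted p = 0.166). The calls also depended on single arrays. No member remained without M1B26 CD10+ replicate 1, M1B26 CD10+ replicate 2, M1B26 CD10- replicate 2 or MCF10A-CT CD10+ replicate 2, and 1 remained without MCF10A-CT CD10+ replicate 1 or MCF10A-CT CD10- replicate 2. Of the 37 values 32 lay above 0, with a median of 0.39, against 54.1% and 0.05 over all genes.

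Against MC26 no member's M1B26 difference passed by limma (0.657% of genes called larger, 0.608% smaller). At an unadjusted p under 0.05, a looser threshold than that of these shares, there were 9 members. The share of all genes at that looser threshold is not given here. The nearest were BNIP3L (1.63, adjusted p = 0.0612), PFKFB4 (1.45, adjusted p = 0.119) and ALDOC (1.39, adjusted p = 0.19). Without MC26 CD10- replicate 2, BNIP3L was called (2.06, adjusted p = 0.0241). Between MC26 and MCF10A-CT no member's CD10 difference differed by limma (0% of genes called either way), and 1 had an unadjusted p under 0.05. EGLN3 (1.31), ALDOC (0.60) and SLC2A1 (0.38) had the smallest p there, each with an adjusted p of 1.

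Same-numbered CD10+ and CD10- arrays deviated together, weakly in M1B26 (correlation 0.184), more in MC26 (0.361) and most in MCF10A-CT (0.635). In M1B26 the CD10+ and unsorted arrays gave 0.122, close to that. A fit of the sorted arrays that took the replicate number as a block called more members. In M1B26 10 members were higher in CD10+ cells, against 12.2% of all genes called higher in that fit. They were the same 4 with ADM, P4HA1, BNIP3, TPI1, the glucose-phosphate isomerase GPI and INSIG2, a brake on sterol synthesis. The average over lines gave 5 members (4.54% of genes): BNIP3L, PFKFB4, ALDOC, P4HA2 and ADM. The M1B26 difference was larger than that of MCF10A-CT in 7 members (7.01% of genes) and than that of MC26 in 7 (7.53%). This fit was chosen after seeing the data and has 3 residual degrees of freedom, with its spread taken from all genes. The parts of the block, of the missing unsorted arrays and of the common spread in the added calls were not tested.

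Among other genes of the pathway, 6 of 31 further HIF targets were higher in CD10+ than in CD10- M1B26 cells and 2 lower, where 3.76% of all genes were higher and 2.74% lower. TMEM45A measured 871 and 652 in CD10+ cells, against 143 and 101 in CD10- cells (2.64, adjusted p = 1.59e-04, limma). LOX, which crosslinks collagen, measured 738 and 709 in CD10+ cells, against 206 and 124 in CD10- cells (2.17, adjusted p = 8.35e-04). PLOD2, a collagen lysyl hydroxylase, measured 6516 and 6060 in CD10+ cells, against 2970 and 2571 in CD10- cells (1.19, adjusted p = 0.00174). MET, the hepatocyte growth factor receptor, and the growth factor TGFA were the lower ones (−1.41 and −1.61). Of 33 other genes of glucose metabolism, PDK2, a pyruvate dehydrogenase kinase, was higher (1.65, adjusted p = 0.0212) and PDP1, the opposing phosphatase, lower (−0.96, adjusted p = 0.0337), a share near that of all genes. None of 14 other HIF pathway components was called.

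Between lines, more members were called in CD10+ cells than in CD10- or unsorted cells. Per gene, the line difference in CD10+ cells minus that in CD10- cells equals the difference between lines in the CD10 difference, tested above. That test called 3 members for M1B26 against MCF10A-CT and 0 for the other pairs of lines. Whether the counts of calls differed between populations was not tested. In CD10+ cells 17 of 37 members were higher in M1B26 than in MCF10A-CT and 1 was lower, where 21.1% of all genes were called higher and 5.32% lower. The median difference was 0.72, against 0.31 over all genes, and 29 members lay above 0. All 3 oxygen sensing genes, 8 of 15 glycolytic enzymes, 2 of 4 regulatory kinases and 4 of 13 other HIF targets were higher. Neither glucose carrier was called. Because the median of all genes was itself above 0, arrays were also centred on the tested genes. This left 11 members higher and 2 lower, PFKFB2 and the muscle type phosphofructokinase PFKM (−0.50), with ALDOA, ENO1, GPI, BNIP3L, P4HA1 and INSIG2 no longer called, and quantile normalization ended the same 6 calls. The share of all genes called after centring is not given here, so whether the members still exceeded it cannot be read from these counts. With the mean over probe sets P4HA1, ENO1 (0.39, adjusted p = 0.18), PDK1 (0.43, adjusted p = 0.264) and PFKFB2 (−0.43, adjusted p = 0.369) were not called. Without M1B26 CD10+ replicate 1, 11 members were called, all higher, and without any other single array of these groups 12 to 16.

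PKM, pyruvate kinase, measured 2505 and 3099 in M1B26 CD10+ cells, against 583 and 487 in MCF10A-CT CD10+ cells, a difference of 2.39 ± 0.32 (adjusted p = 1.57e-04, limma). The second PKM probe set did not show it, with 0.23 (adjusted p = 0.622), so the PKM value holds for 1 probe set. TPI1 measured 7386 and 7742 in M1B26, against 3395 and 3227 in MCF10A-CT (1.19, adjusted p = 1.96e-04). PGAM1, phosphoglycerate mutase, measured 6045 and 6471 in M1B26, against 3253 and 2693 in MCF10A-CT (1.08, adjusted p = 4.57e-04), and PGK1, phosphoglycerate kinase, 8526 and 8738 in M1B26, against 5244 and 4643 in MCF10A-CT (0.81, adjusted p = 9.56e-04). The M1B26 arrays exceeded the MCF10A-CT arrays throughout. GPI (0.86), ALDOC (1.35), ALDOA (0.60) and ENO1 (0.49) completed the called enzymes.

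EGLN3 measured 103 and 96.1 in M1B26 CD10+ cells, against 21.3 and 14.4 in MCF10A-CT CD10+ cells (2.44 ± 0.38, adjusted p = 5.08e-04, limma). The MCF10A-CT values of EGLN3 lie near the limit for low values (intensity 14.3), and the size of the difference rests on them. HIF1A measured 9836 and 10216 in M1B26, against 5421 and 5592 in MCF10A-CT (0.86 ± 0.16, adjusted p = 0.00146), and EGLN1 2147 and 2126 in M1B26, against 1286 and 686 in MCF10A-CT (1.19, adjusted p = 0.00543). Neither pair overlapped. PDK1, which switches off pyruvate dehydrogenase, measured 653 and 467 in M1B26, against 217 and 196 in MCF10A-CT (1.42, adjusted p = 7.14e-04), and its second probe set gave 0.89 (adjusted p = 0.0209). BNIP3 (1.51, adjusted p = 0.00119), PFKFB4 (1.52, adjusted p = 0.00237), BNIP3L (1.15), P4HA1 (1.16, but −0.07 with adjusted p = 0.915 as the mean of its probe sets) and INSIG2 (1.08) were higher as well. PFKFB2, named here after its values were seen, was the lower one at 72.9 and 74.6 in M1B26, against 137 and 113 in MCF10A-CT (−0.75, adjusted p = 0.0206).

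**Figure D4:**
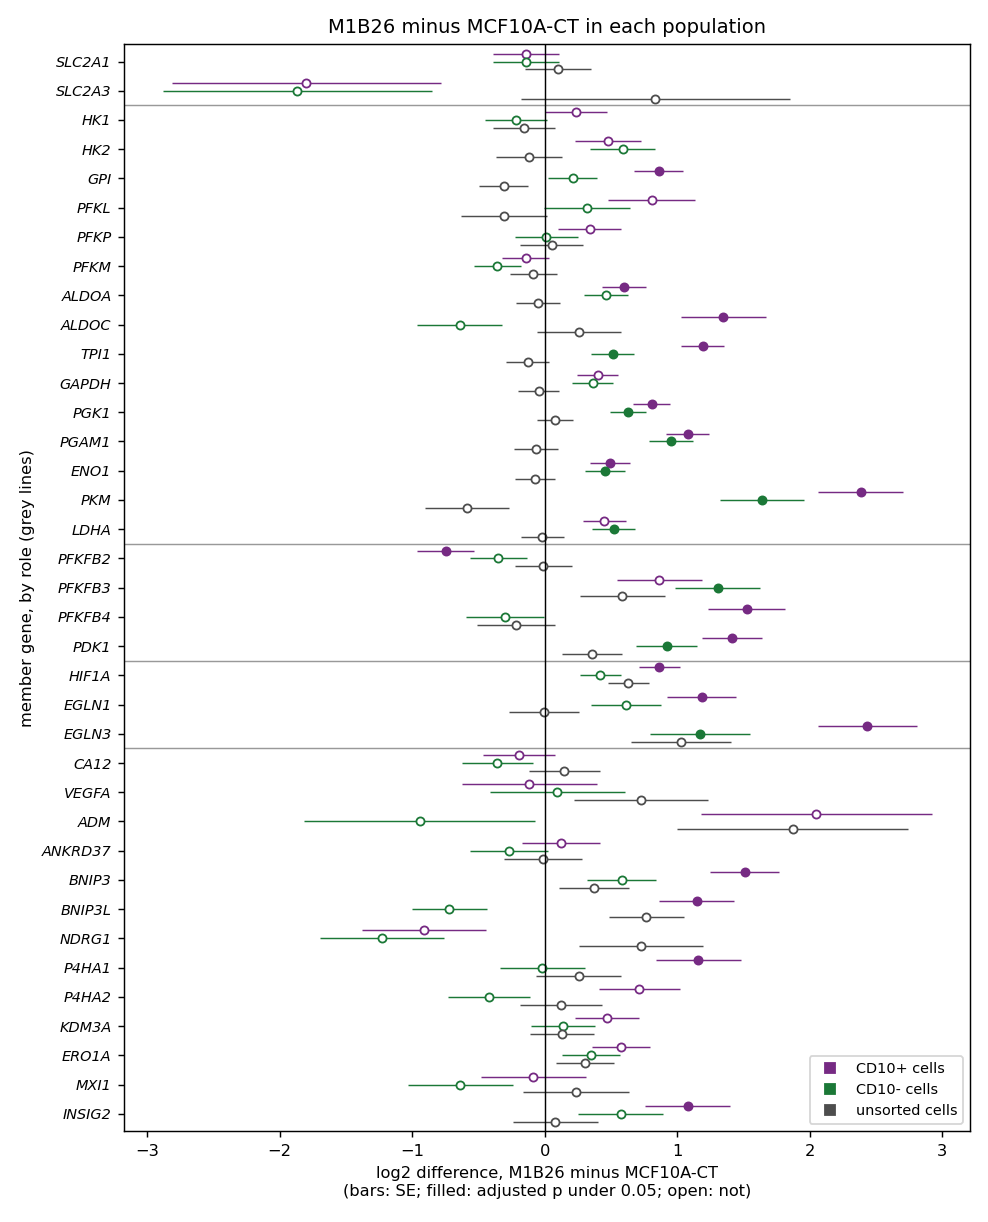
M1B26 minus MCF10A-CT difference (log2 scale, horizontal) with its SE for each member (vertical) among CD10+, CD10- and unsorted cells, with called differences as filled points. Among CD10+ cells 18 points are filled, among CD10- cells 9 and among unsorted cells 0.

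In CD10+ cells 14 members were higher in M1B26 than in MC26 and none lower, where 9.12% of all genes were called higher and 2.56% lower. BNIP3L had the largest difference of those called, 2.43 ± 0.28 (adjusted p = 6.6e-05, limma), at 1975 and 1694 in M1B26, against 387 and 299 in MC26. HIF1A measured 9836 and 10216 in M1B26, against 4721 and 5479 in MC26 (0.98, adjusted p = 8.51e-04), and BNIP3 3422 and 2994 in M1B26, against 1224 and 928 in MC26 (1.59, adjusted p = 0.00116). PFKFB4 (1.68), GPI (1.00), PKM (1.67), TPI1 (0.77), ALDOC (1.48), P4HA1 (1.38), PGK1 (0.57), ALDOA (0.65) and PGAM1 (0.63) followed. GAPDH (0.58, adjusted p = 0.024) and the histone demethylase KDM3A (0.84) were called with them. With arrays centred on the tested genes 8 remained, without ALDOA, GAPDH, PGK1, PGAM1, P4HA1 and KDM3A. The mean over probe sets ended the calls of TPI1 (0.61, adjusted p = 0.12), GAPDH (0.55, adjusted p = 0.0817), PGK1 (0.30, adjusted p = 0.34), PKM (0.66, adjusted p = 0.176), P4HA1 (0.91, adjusted p = 0.143) and KDM3A (0.29, adjusted p = 0.706). Without MC26 CD10+ replicate 1, 5 remained, and without M1B26 CD10+ replicate 1 or 2, 7 remained.

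Between MC26 and MCF10A-CT CD10+ cells 3 members were higher in MC26 and 1 was lower (7.99% and 5.47% of all genes). EGLN3 measured 95.4 and 58.4 in MC26, against 21.3 and 14.4 in MCF10A-CT (2.03, adjusted p = 0.00533, limma), PFKFB3, the paralog of PFKFB4, 596 and 549 in MC26, against 248 and 242 in MCF10A-CT (1.22, adjusted p = 0.0226), and PDK1 370 and 336 in MC26, against 217 and 196 in MCF10A-CT (0.77, adjusted p = 0.0372; 0.37, adjusted p = 0.397, with the mean of its probe sets). The MCF10A-CT values of EGLN3 lie near the limit for low values, and the size of its difference rests on them. BNIP3L was lower at 387 and 299 in MC26, against 830 and 820 in MCF10A-CT (−1.28, adjusted p = 0.0106). None of the 4 remained without MCF10A-CT CD10+ replicate 2, and 1 remained without either MC26 CD10+ array.

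Other genes of the pathway are read against all genes, of which 21.1% were higher and 5.32% lower in M1B26 than in MCF10A-CT CD10+ cells and 9.12% and 2.56% in M1B26 than in MC26. Of the 14 HIF pathway components 5 were higher in M1B26 than in MCF10A-CT, with HSP90AA1, a chaperone, at 0.74, CUL2 at 1.04 and ELOC at 0.70, the last pair being subunits of the VHL ligase, and ELOB (0.81) was the 1 called against MC26. Of 33 other genes of glucose metabolism, 5 were higher and 3 lower than in MCF10A-CT, a smaller share higher than over all genes, led by UGP2 (2.39) and the glycogen synthase GYS1 (1.95), which make glycogen, and TIGAR (1.95). Against MC26 3 were higher, PDK3 (1.203), UGP2 (1.501) and GYS1 (1.08). Of 31 further HIF targets, 8 were higher and 3 lower than in MCF10A-CT, with PLOD2 (2.18), BHLHE41 (−3.85) and MET (−1.51) first, and 12 were higher and 1 lower than in MC26, with PLOD2 (1.64), TMEM45A (2.49) and LOX (2.40) first.

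Cell division genes moved with the comparisons against sorted MCF10A-CT cells, and their part in them was not tested. All 10 were higher in M1B26 than in MCF10A-CT, with a median of 1.30 in CD10+ cells and 2.02 in CD10- cells. The mean centred level of that list was −1.57 to −0.98 on the 4 sorted MCF10A-CT arrays and −0.24 to 0.80 on all others. MKI67, a proliferation antigen, measured 119 to 188 on the sorted MCF10A-CT arrays and at least 286 on all others. Immediate early and heat shock genes, which respond to handling, stood at 0.21 to 1.23 on the sorted MCF10A-CT arrays, −0.60 and −0.89 on the M1B26 CD10+ arrays and −0.50 to 0.40 on the rest, and of 9 tested 5 were lower and 1 higher in M1B26 than in MCF10A-CT CD10+ cells. Between M1B26 and MC26 CD10+ cells none of the 10 cell division genes was called by limma, and there 14 members were higher. In that comparison 8 of 9 mesenchymal markers were higher and none lower, FN1 (5.85) and DCN (5.49) among them, and of 9 epithelial markers 4 were lower, CDH1 (−3.93) among them, and 1 higher. Against MCF10A-CT CD10+ cells 8 of 9 mesenchymal markers were higher too, and 5 of 9 epithelial markers lower and 1 higher. The part of these markers in the members' differences was not tested. With the sorted MCF10A-CT arrays left out of the fit, which was added after seeing the data, 17 members were called between M1B26 and MC26 CD10+ cells, all 14 among them with ADM (2.59), PFKL (0.93) and P4HA2 (0.95). Between CD10+ and CD10- M1B26 cells 6 were called, all 4 among them with ADM (2.71, adjusted p = 0.00295) and P4HA1 (0.98, adjusted p = 0.0176). The share of all genes called in that fit is not given here, so these added calls cannot be read as particular to the members.

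In CD10- cells 9 members were higher in M1B26 than in MCF10A-CT and none lower (19.8% and 6.66% of all genes), so their share was near that of all genes. The median difference, 0.21, was near the 0.23 of all genes. Of the 9, 6 were glycolytic enzymes: PGAM1 (0.95 ± 0.16, adjusted p = 0.00135, limma), PKM (1.64, adjusted p = 0.00255), PGK1 (0.63, adjusted p = 0.00448), LDHA (0.52, adjusted p = 0.0285), TPI1 (0.51, adjusted p = 0.0309) and ENO1 (0.46, adjusted p = 0.0372). PGAM1 measured 6282 and 5974 in M1B26, against 3129 and 3195 in MCF10A-CT. PFKFB3 (1.31, adjusted p = 0.00931), PDK1 (0.92, adjusted p = 0.00976) and EGLN3 (1.17, adjusted p = 0.0322) were the rest, and none of the 13 other HIF targets was called. With arrays centred on the tested genes 5 of the 9 remained, without TPI1, ENO1, LDHA and EGLN3, and PFKM (−0.60) and BNIP3L (−0.96) were lower. ENO1 was at −0.11 (adjusted p = 0.734) with the mean of its probe sets and missed the threshold with the replicate block on all arrays (adjusted p = 0.053). With the mean over probe sets TPI1 (adjusted p = 0.0831), LDHA (adjusted p = 0.0504) and PDK1 (0.15, adjusted p = 0.735) were not called either.

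The second probe set of PKM gave 0.61 (adjusted p = 0.164) in the M1B26 and MCF10A-CT CD10- cells and that of PDK1 −0.04. Without MCF10A-CT CD10- replicate 2 or M1B26 CD10- replicate 1, 3 of the 9 calls remained, and without M1B26 CD10- replicate 2, 5. In the same population MC26 differed from MCF10A-CT in 3 members (13.4% of genes higher, 6.54% lower). PFKFB3 was higher (1.198, adjusted p = 0.019, limma), and BNIP3L and NDRG1, a stress-responsive differentiation gene, were lower (−1.51, adjusted p = 0.0029, and −1.51, adjusted p = 0.0353). NDRG1 measured 2121 and 912 in MC26, against 2885 and 5439 in MCF10A-CT. Without MCF10A-CT CD10- replicate 2, 1 call was left, and without replicate 1 of that group 7 were made, with SLC2A1, ADM and the MYC antagonist MXI1 lower and EGLN1 higher. M1B26 and MC26 CD10- cells differed in no member by limma (0.0493% of genes higher, 0.0329% lower). At the looser threshold of an unadjusted p under 0.05, for which no share of all genes is given, there were 10. First were PKM (1.18, adjusted p = 0.36), LDHA (0.58, adjusted p = 0.396) and PGK1 (0.46, adjusted p = 0.422).

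Unsorted cells of the 3 lines differed in no member by limma. For M1B26 against MCF10A-CT, 4 members had an unadjusted p under 0.05. At the adjusted threshold, where no member was called, 0.542% of all genes were called higher and 0.131% lower. HIF1A was nearest, at 7823 and 6989 in M1B26, against 5454 and 4182 in MCF10A-CT (0.63, adjusted p = 0.0994), without overlap. EGLN3 (1.03, adjusted p = 0.455) and BNIP3L (0.77, adjusted p = 0.467) followed, and ADM had the largest difference (1.87, not called) at 353 and 527 in M1B26, against 128 and 107 in MCF10A-CT. SLC2A3, a neuronal glucose carrier, had 0.84, PKM −0.58 and PFKFB3 0.59, none called. The member median was 0.08, against 0.01 over all genes.

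For unsorted MC26 against MCF10A-CT, 5 members had an unadjusted p under 0.05 and none was called by limma (0.197% of genes higher, 0.123% lower), with PFKFB3 (0.99, adjusted p = 0.318), PKM (−0.85, adjusted p = 0.441) and PDK1 (0.56, adjusted p = 0.514) first. For unsorted M1B26 against MC26, 3 had such a p and none was called (0.0739% of genes higher, 0.0246% lower), with BNIP3L (0.90, adjusted p = 0.56), BNIP3 (0.70, adjusted p = 0.745) and EGLN3 (0.89, adjusted p = 0.931) first. Without MCF10A-CT unsorted replicate 1, HIF1A was called for M1B26 (0.82, adjusted p = 0.0497) and PKM for MC26 (−1.48, adjusted p = 0.0416) against MCF10A-CT. Without MC26 unsorted replicate 1, PFKFB3 was called for MC26 against MCF10A-CT (1.53, adjusted p = 0.0297).

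Sorted cells, CD10+ and CD10- together, were also compared with unsorted cells of the same line. In M1B26 5 were higher and none lower (2.56% and 1.65% of all genes). PKM measured 2505 and 3099 in CD10+ cells and 2334 and 2478 in CD10- cells, against 361 and 496 in unsorted cells (2.61 ± 0.28, adjusted p = 1.37e-04, limma). GPI measured 2661 and 2962 in CD10+ cells and 1850 and 2061 in CD10- cells, against 1040 and 1185 in unsorted cells (1.08, adjusted p = 0.00153). BNIP3 (1.03, adjusted p = 0.0177), PFKFB4 (1.06, adjusted p = 0.0282) and BNIP3L (0.99, adjusted p = 0.0332) were called too, of which PFKFB4 and BNIP3L were called between CD10+ and CD10- cells as well. The sorted value averages both populations. For BNIP3L the CD10- cells lay near the unsorted cells, and the high PFKFB4 values were those of CD10+ cells. Both calls therefore rest mainly on CD10+ cells. PFKFB4 did not pass with the mean of its probe sets (0.97, adjusted p = 0.0634), nor BNIP3L with arrays centred on the tested genes (0.87, adjusted p = 0.0525). Without either unsorted M1B26 array, M1B26 CD10- replicate 1 or M1B26 CD10+ replicate 1, 2 members were called, and without M1B26 CD10+ replicate 2, 3.

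In MC26 PKM alone was higher in sorted cells and none was lower (0.518% and 0.304% of genes), at 723 and 1060 in CD10+ cells and 1054 and 1063 in CD10- cells, against 383 and 322 in unsorted cells (1.45, adjusted p = 0.0236, limma), or 0.59 (adjusted p = 0.28) with the mean of its probe sets. It was not called without either unsorted MC26 array, without MC26 CD10- replicate 1 or without MC26 CD10+ replicate 2. Averaged over the lines the second PKM probe set was lower in sorted cells, at −0.62 (adjusted p = 0.011), where the first gave 1.36, and in M1B26 it gave −0.43 (adjusted p = 0.395). The direction of PKM between sorted and unsorted cells therefore depends on the probe set.

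In MCF10A-CT 5 members were higher and 5 lower in sorted than in unsorted cells (6.58% and 15.6% of all genes). BNIP3L measured 830 and 820 in CD10+ cells and 771 and 958 in CD10- cells, against 321 and 258 in unsorted cells (1.54 ± 0.25, adjusted p = 0.00102, limma). NDRG1 (1.71, adjusted p = 0.00923), ADM (2.504, adjusted p = 0.0281), ALDOC (0.91, adjusted p = 0.0292) and SLC2A3 (2.68, adjusted p = 0.0402) were the other higher ones. ADM, NDRG1 and SLC2A3 were each higher in replicate 2 than in replicate 1 of both sorted groups, and ADM measured 128 and 107 in unsorted cells. The SLC2A3 values come from a probe set annotated to it alone. A pair of further probe sets, annotated to its paralog SLC2A14 as well, was not used, and whether the one used also binds SLC2A14 was not tested.

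The lower members in sorted MCF10A-CT cells were 4 glycolytic enzymes and PDK1. PGAM1 measured 3253 and 2693 in CD10+ cells and 3129 and 3195 in CD10- cells, against 4929 and 5183 in unsorted cells (−0.72 ± 0.14, adjusted p = 0.00318, limma). PGK1 (−0.49, adjusted p = 0.0102), TPI1 (−0.49, adjusted p = 0.0221), LDHA (−0.47, adjusted p = 0.0285) and PDK1 (−0.74, adjusted p = 0.0166) followed, though the second probe set of PDK1 gave 0.08. With the mean over probe sets TPI1 (−0.41, adjusted p = 0.154) and PDK1 (−0.22, adjusted p = 0.539) were not called. All 10 cell division genes were lower in the same cells, with a median of −1.87, and their part was not tested. Without MCF10A-CT unsorted replicate 1, 5 members were called, without unsorted replicate 2, 3, and without CD10+ replicate 2, 4. With arrays centred on the tested genes 8 members were higher, with PFKM (0.45), CA12 (0.66) and P4HA2 (0.86) added, and 3 lower, without TPI1 and LDHA. With quantile normalization the split was 9 and 3. The median of all genes was −0.13 before either step.

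**Figure D5:**
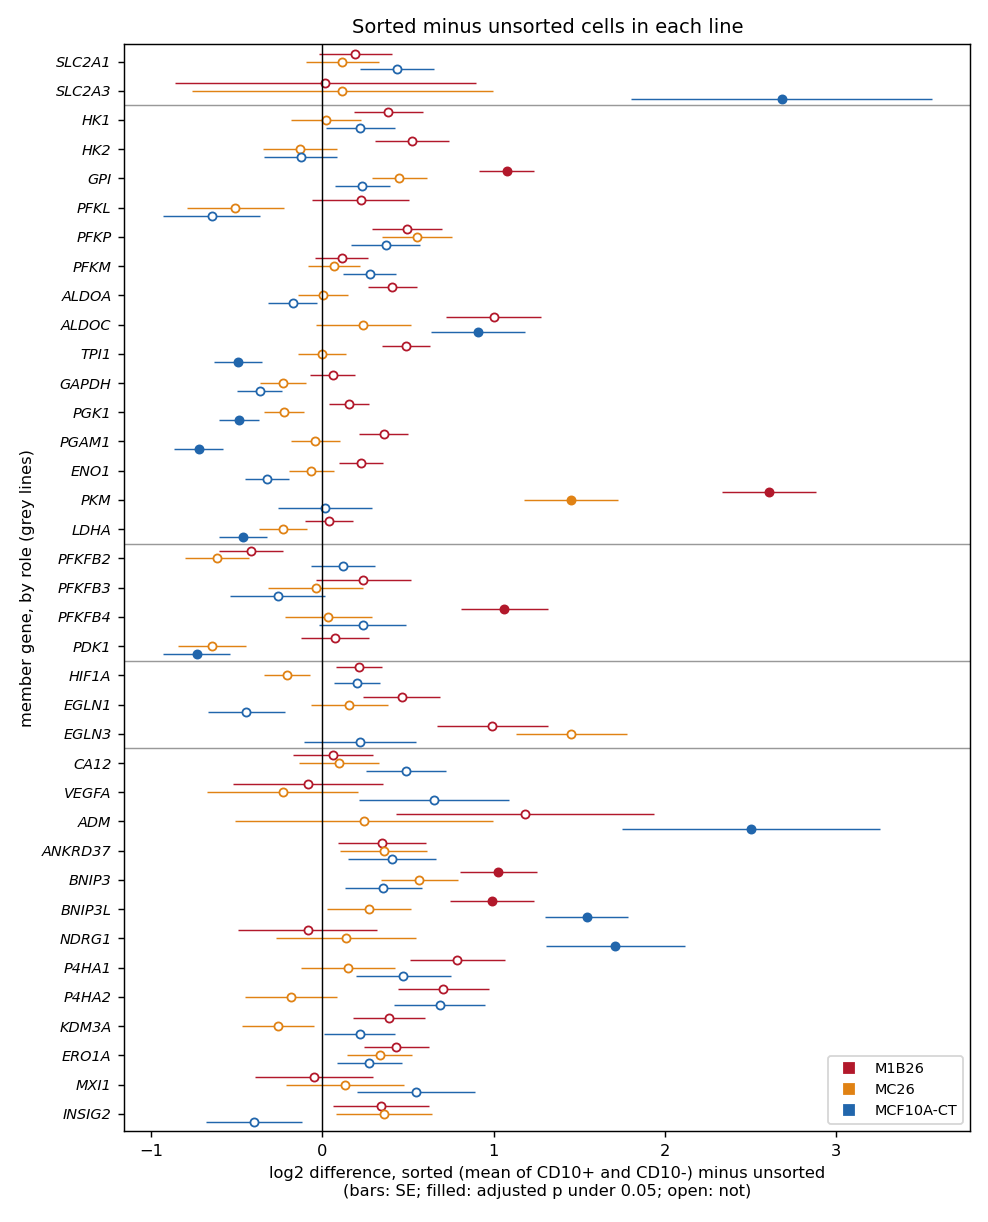
Sorted minus unsorted difference (log2 scale, horizontal) with its SE for each member (vertical) in M1B26, MC26 and MCF10A-CT, with called differences as filled points. PGAM1, PGK1, TPI1, LDHA and PDK1 are filled below 0 in MCF10A-CT, and PKM is the only filled point in MC26.

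Averaged over the lines, 8 members were higher in sorted cells and 1 lower (6.81% and 8.44% of all genes). PKM (1.36), BNIP3L (0.94), GPI (0.59), BNIP3 (0.65), EGLN3 (0.89), ALDOC (0.72), the platelet type phosphofructokinase PFKP (0.47) and ERO1A (0.35) were higher and PDK1 (−0.44) was lower. With the mean over probe sets PKM (0.37, adjusted p = 0.0817), PFKP (0.19, adjusted p = 0.412), ERO1A (0.20, adjusted p = 0.126) and PDK1 (−0.24, adjusted p = 0.234) were not called. The 3′ to 5′ log2 ratio of the ACTB control probe sets, a sign of RNA integrity, was 0.15 to 0.42 on sorted and 0.64 to 1.10 on unsorted arrays, while that of GAPDH was −0.10 to 0.13 on all 18. Its part in these differences was not tested.

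The sorted minus unsorted difference itself differed between lines in a test added after seeing the data. It was larger in M1B26 than in MCF10A-CT for 5 enzymes and smaller for none (9.14% and 2.73% of genes): PKM (2.60), PGAM1 (1.08), TPI1 (0.98), PGK1 (0.64) and GPI (0.84). Between MC26 and MCF10A-CT it was larger for PKM (1.44, adjusted p = 0.0414, limma) and smaller for BNIP3L (−1.27, adjusted p = 0.0425), where 4.03% and 2.04% of genes were called. With arrays centred on the tested genes GPI (0.54, adjusted p = 0.126) and PGK1 (0.34, adjusted p = 0.142) did not pass in the first test. PKM did not pass in the second under quantile normalization, centring, no low-value limit or the mean over probe sets (adjusted p from 0.051 to 0.0703), nor BNIP3L without the low-value limit (adjusted p = 0.0566) or with the mean over probe sets (adjusted p = 0.0789). The number of members called ranged from 1 to 8 in the first test and from 0 to 3 in the second when single arrays were left out. In the first, 1 was left without M1B26 unsorted replicate 1, 3 without MCF10A-CT unsorted replicate 2, MCF10A-CT CD10+ replicate 2 or M1B26 CD10+ replicate 2, and 8 were called without MCF10A-CT CD10+ replicate 1. In the second, none was left without MCF10A-CT unsorted replicate 2, MCF10A-CT CD10- replicate 2, MCF10A-CT CD10+ replicate 2, MC26 unsorted replicate 1, MC26 CD10- replicate 2 or MC26 CD10+ replicate 2, and 1 without MC26 CD10- replicate 1 or MCF10A-CT unsorted replicate 1.

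Beside these differences, some members varied mainly between replicates. In M1B26 15 of 37 members (40.5%) differed in the same direction between replicates 1 and 2 in all 3 populations, against 28.1% of all tested genes. In MC26 15 did (40.5%, against 26.1%) and in MCF10A-CT 8 (21.6%, against 41.3%). SLC2A3 was higher in replicate 1 by 1.30, 1.28 and 1.54 in CD10+, CD10- and unsorted M1B26 cells, and by 1.25, 1.80 and 3.42 in MC26 on the log2 scale. NDRG1 was higher in replicate 1 of MC26 by 1.02, 1.22 and 1.04. VEGFA, which was called in no comparison, measured 2505 and 958 in unsorted MC26 cells and 1278 and 443 in unsorted MCF10A-CT cells. The pooled SD within groups was 1.12 for ADM, 1.29 for SLC2A3, 0.59 for NDRG1 and 0.64 for VEGFA on the log2 scale, so differences of these genes were measured with low precision.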

How the data were processed

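Total RNA of 18 samples was hybridised to Affymetrix HG-U133 Plus 2.0 arrays by the authors. The authors deposited a linear intensity for each probe set on each array, made with Affymetrix Expression Console and MAS5 (versions not given in the sources used here) and scaled by them to the same median on every array. Upper quartiles ran from 95.1 to 123.6, so no quantile normalization was applied. The methods name RMA, which these values do not show.

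Of 54675 probe sets 62 were controls, 41091 had 1 gene, 1801 several and 11721 none in the annotation used, updated through the GRCh38.p14 gene table, and 54 kept an older symbol. The probe set with the highest mean stood for a gene (19775 genes). Genes with a mean log2(intensity + 1) over 3.93 (intensity 14.3) were tested (12171). Of the members, 25 had several probe sets, 16 used one with the suffix s and 4 one with the suffix x, which can bind related transcripts.

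limma 3.58.1 in R 4.3.3 (lmFit, eBayes with trend) fitted 9 group means to all arrays, two-sided, for 20 comparisons and 3 added after seeing the data. The fit had 9 residual degrees of freedom and a prior of 6.28. The median SE was 0.296 within a line. The code was tested on simulated data. Members and lists were chosen with earlier results of these data known. The text names every called member, at most the 12 with the smallest p (further ones are given as such), otherwise the 3 with the smallest p; from each role the member with the largest difference in M1B26 CD10+ against CD10- and in unsorted M1B26 against MCF10A-CT; HIF1A, GAPDH, LDHA, SLC2A1, CA9 and VEGFA; and up to 3 genes of other lists. Epithelial, mesenchymal, leukocyte, endothelial, immediate early and cell division lists described the arrays. Alternatives were quantile normalization, centring, another pseudocount, no low-value limit, the mean over probe sets, a replicate block and leaving out each array. Deviations of same-numbered CD10+ and CD10- arrays correlated at 0.184 in M1B26, 0.361 in MC26 and 0.635 in MCF10A-CT, and those of sorted and unsorted arrays at −0.015 to 0.122, so the number was read as pairing the sorted arrays only. For M1B26, where 0.184 lies close to 0.122, that pairing is uncertain.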

Additional observations from a re-analysis of the deposited data

Results flagged for a closer look

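Differences between lines in the same contrast passed the test of the difference itself for 8 members, and each group held 2 arrays, too few to test for single arrays that stand apart. The CD10+ minus CD10- difference was larger in M1B26 than in MCF10A-CT for ALDOC by 1.992, for PFKFB4 by 1.826 and for BNIP3L by 1.866 on the log2 scale. The sorted minus unsorted difference was larger in M1B26 than in MCF10A-CT for GPI by 0.843, TPI1 by 0.98, PGK1 by 0.638, PGAM1 by 1.081 and PKM by 2.596. Between MC26 and MCF10A-CT the same difference was larger for PKM by 1.438 and smaller for BNIP3L, at −1.27. The PKM values come from 1 of its probe sets, and averaged over the lines the other was lower in sorted than in unsorted cells. With the mean over probe sets both PKM differences between lines stayed above 0. That of M1B26 was still called, and that of MC26 was not (1.151, adjusted p = 0.0703, limma). Sorted MCF10A-CT arrays, which enter every one of these differences, had lower cell division genes than all other arrays, and the part of this was not tested.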

How the results depend on the processing

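Counts of members called, higher and lower together, moved as follows. The shares of all genes called are not given in this section, so the counts show only how the members' calls moved. With the mean over probe sets 2 in place of 4 were called between CD10+ and CD10- M1B26 cells, 1 in place of 3 for M1B26 minus MCF10A-CT in that difference, 9 in place of 14 for M1B26 minus MC26 CD10+ cells, and 10, 0 and 0 for sorted minus unsorted in M1B26, in MC26 and in MC26 minus MCF10A-CT (5, 1 and 2 otherwise). Quantile normalization gave 1 for the CD10 average (0 otherwise), 8 (4 higher, 4 lower) and 9 (7 higher, 2 lower) for MC26 minus MCF10A-CT in CD10- and CD10+ cells (3 and 4), 8 for M1B26 minus MC26 CD10+ cells (14), 2 for sorted minus unsorted MC26 cells (1) and 4 for that of MC26 minus MCF10A-CT (2). Centring gave 8 for M1B26 minus MC26 CD10+ cells and 2 for sorted minus unsorted MC26 cells. Without the low-value limit 1 was called in the M1B26 minus MCF10A-CT CD10 difference, 5 in CD10- M1B26 minus MCF10A-CT cells (9) and 0 in sorted minus unsorted of MC26 minus MCF10A-CT. A pseudocount of 16 gave 1 for the M1B26 minus MC26 CD10 difference (0) and 2 for sorted minus unsorted MC26 cells.

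The replicate block on all arrays gave 2 for the CD10 average, 2 for M1B26 minus MC26 in the CD10 difference, 5 and 7 for MC26 minus MCF10A-CT in CD10- and CD10+ cells, 2 for sorted minus unsorted MC26 cells, 14 for the sorted average (9), and 9 and 4 for the sorted differences of M1B26 and of MC26 minus MCF10A-CT (5 and 2). The block on the sorted arrays alone gave 10 in M1B26, 5 for the average, and 7 and 7 for M1B26 minus MCF10A-CT and minus MC26. Leaving out the sorted MCF10A-CT arrays gave 6 in M1B26, 17 for M1B26 minus MC26 CD10+ cells, and 6 and 2 for sorted minus unsorted M1B26 and MC26 cells.

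With single arrays left out, members called in CD10+ minus CD10- cells ranged from 2 to 3 in M1B26, were 0 to 0 in MC26, in MCF10A-CT and in their average, and 0 to 1 for the average over lines. The M1B26 difference gave 0 to 3 against MCF10A-CT and 0 to 1 against MC26, and MC26 against MCF10A-CT 0 to 0. In CD10+ cells the ranges were 11 to 16 for M1B26 minus MCF10A-CT, 0 to 4 for MC26 minus MCF10A-CT and 5 to 13 for M1B26 minus MC26, in CD10- cells 3 to 9, 1 to 7 and 0 to 0, and in unsorted cells 0 to 1, 0 to 1 and 0 to 0. Sorted minus unsorted gave 2 to 4 in M1B26, 0 to 1 in MC26, 3 to 12 in MCF10A-CT and 6 to 13 on average, and its differences from MCF10A-CT 1 to 8 in M1B26 and 0 to 3 in MC26.

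Of 87 called gene results, the mean over probe sets ended 28 and reversed 2: ENO1 in CD10- cells (−0.112, adjusted p = 0.734) and P4HA1 in CD10+ cells (−0.067, adjusted p = 0.915), both for M1B26 minus MCF10A-CT. Centring ended 23, quantile normalization 21, no low-value limit 20, the block on all arrays 1 and the pseudocount 0. The cause of these losses was not tested. Signals near background, as for ENO2, bound what can be measured.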
